A study of Mus musculus with 20 samples.

Results

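The genes described here are 54 mouse genes of mitosis and cytokinesis, the division of the chromosomes and then of the cell body, chosen by gene symbol from their known roles. The choice used none of their values but was made with earlier results of these data known. The genes are 54 of 12462 tested on 20 arrays of regulatory T (Treg) cells, the Foxp3-expressing CD4 T cells that restrain immune responses. Each gene had 1 probe set, and all 54 passed the filter on dim probe sets, although 26 of them were above their array's median on fewer than 2 of the 3 arrays of cells at 0 h and passed through the cultured cells. For display they were grouped by role as Cdk1 and its cyclins, mitotic kinases, spindle checkpoint, anaphase-promoting complex (APC/C) and separase, kinetochore, chromosomal passenger complex, spindle kinesins, other spindle proteins, cytokinesis, and mitotic chromosome.

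A cell enters mitosis when the kinase Cdk1, bound to cyclin B, is switched on. Kinetochores, the protein plates on the centromeres, then attach chromosomes to the spindle while the spindle checkpoint holds back the APC/C, a ubiquitin ligase; its activation releases separase and destroys cyclin B and securin, and cytokinesis follows through the central spindle and a contractile ring. Many of these genes are transcribed in a wave late in the cell cycle, through promoters that carry CHR elements and CCAAT boxes bound by the DREAM, B-Myb and FoxM1 complexes. Naive-like T cells are largely out of cycle until stimulated through the antigen receptor. Prenylation is the addition of a farnesyl or geranylgeranyl lipid to proteins by dedicated transferases.

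The study asked what protein prenylation does in Treg activation. All cells were Treg of the CD44-low CD62L-high central type (cTreg), sorted as CD4+YFP+ out of the spleen and pLN of C57BL/6J Foxp3YFP-Cre mice, so that every group, controls included, carried the YFP-Cre allele in Foxp3. The groups were GGTI_18h (2 arrays), FTI_18h (3) and DMSO_18h (3), GGTI_48h (3), FTI_48h (3) and DMSO_48h (3), and DMSO_0h (3), where GGTI is an inhibitor of geranylgeranyl transferase, FTI an inhibitor of farnesyl transferase and DMSO the solvent. Cells of the 18 and 48 h groups were stimulated for that time with anti-CD3/28 antibodies at 10 ug/ml and IL-2 at 200 U/ml, with the inhibitors added 2 h before. The labels give neither the compounds nor their doses. No group was cultured without stimulation, so time in culture, IL-2 and antibodies cannot be told apart. Nothing in the labels says that arrays of a group came from separate mice, so p-values measure the spread between arrays, which may be technical.

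The promoters of 6 genes with differing values are printed, each from 250 bases before to 50 after the transcription start, 5′ to 3′ along the gene, from RefSeq on build GRCm38.p6. Capitals mark CHR elements (TTTGAA or TTCGAA) and CCAAT boxes (CCAAT), on either strand. Cdk1 (chr10:69352863-69353162, minus strand) encodes the kinase of mitotic entry. Plk1 (chr7:122159185-122159484, plus strand) encodes a mitotic kinase that was higher under GGTI than under FTI at both times. Racgap1 (chr15:99651607-99651906, minus strand) and Nusap1 (chr2:119618048-119618347, plus strand) were higher under GGTI at both times. Fam83d (chr2:158767849-158768148, plus strand) and Pttg1 (chr11:43425932-43426231, minus strand) were lower at 18 h than at 0 h.
Cdk1: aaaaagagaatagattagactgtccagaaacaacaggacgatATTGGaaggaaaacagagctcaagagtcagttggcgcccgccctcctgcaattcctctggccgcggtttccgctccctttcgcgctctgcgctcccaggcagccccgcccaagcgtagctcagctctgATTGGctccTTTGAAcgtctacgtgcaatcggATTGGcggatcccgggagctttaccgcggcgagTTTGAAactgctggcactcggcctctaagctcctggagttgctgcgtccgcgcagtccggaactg
Plk1: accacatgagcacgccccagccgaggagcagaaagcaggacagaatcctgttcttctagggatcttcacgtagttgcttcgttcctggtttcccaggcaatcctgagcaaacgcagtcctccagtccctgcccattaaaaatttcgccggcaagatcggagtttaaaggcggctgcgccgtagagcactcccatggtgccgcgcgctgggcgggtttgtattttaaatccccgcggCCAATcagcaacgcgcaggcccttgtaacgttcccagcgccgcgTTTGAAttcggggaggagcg
Racgap1: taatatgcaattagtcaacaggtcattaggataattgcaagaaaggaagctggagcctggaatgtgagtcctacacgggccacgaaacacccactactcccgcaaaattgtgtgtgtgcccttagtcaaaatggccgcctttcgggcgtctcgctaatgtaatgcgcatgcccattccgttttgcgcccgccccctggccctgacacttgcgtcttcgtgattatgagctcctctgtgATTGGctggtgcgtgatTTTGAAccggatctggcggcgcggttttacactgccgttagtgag
Nusap1: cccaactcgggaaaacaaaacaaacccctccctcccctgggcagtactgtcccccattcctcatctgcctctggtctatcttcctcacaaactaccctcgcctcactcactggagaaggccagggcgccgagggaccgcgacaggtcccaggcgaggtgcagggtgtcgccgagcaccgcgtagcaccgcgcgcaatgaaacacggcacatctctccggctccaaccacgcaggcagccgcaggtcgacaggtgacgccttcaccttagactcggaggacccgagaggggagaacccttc
Fam83d: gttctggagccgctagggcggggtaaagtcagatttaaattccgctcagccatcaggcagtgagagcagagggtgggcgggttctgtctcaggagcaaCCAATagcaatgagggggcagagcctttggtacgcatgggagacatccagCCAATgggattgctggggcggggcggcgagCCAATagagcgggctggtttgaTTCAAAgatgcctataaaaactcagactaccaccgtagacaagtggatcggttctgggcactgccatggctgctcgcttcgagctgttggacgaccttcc
Pttg1: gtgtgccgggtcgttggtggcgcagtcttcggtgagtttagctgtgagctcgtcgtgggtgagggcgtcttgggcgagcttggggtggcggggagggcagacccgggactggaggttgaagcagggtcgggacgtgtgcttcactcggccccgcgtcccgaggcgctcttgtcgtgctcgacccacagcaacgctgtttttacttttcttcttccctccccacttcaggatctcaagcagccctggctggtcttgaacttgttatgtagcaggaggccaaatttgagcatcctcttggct

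The Cdk1 window holds 2 CHR elements and 3 CCAAT boxes, those of Plk1 and Racgap1 1 of each, and that of Fam83d 1 CHR element and 3 CCAAT boxes. The windows of Nusap1 and Pttg1 hold neither. Of the 54 genes 46 had a window, in 49 windows in all, since some genes have several starts and a few of these windows overlap. A CHR element was found in 38 of the 49 (77.6%), against 19.2% of 32851 windows of all genes, and a CCAAT box in 34 (69.4%), against 37.4%. Both were found in 31 (63.3%), against 7.52%. An E2F site, searched as TTTCCCGC, TTTGGCGC or TTTCGCGC on both strands and not capitalised above, was found in 3 windows (6.12%, against 1.84%), those of Cdk1, Kif15 and Kif18a. Such a match is a match of letters, not a bound site.

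Values are RMA log2 levels, on which a difference of 1 is 2-fold. Array medians over all probe sets lay between 5.999 and 6.196 and medians of the negative-control probe sets between 4.937 and 5.666, highest in DMSO_0h (group mean 5.638, against 5.168 to 5.278 in the other groups). Of the 8 T and Treg cell markers, 7 were above the negative controls in DMSO_0h and 8 in each other group. The exception was Il2ra, at 5.3, 4.86 and 4.96 in DMSO_0h. A gene is called changed where limma's adjusted p, over all genes tested, is under 0.05. Over all genes tested the median difference was between -0.02 and 0 in each of the 13 comparisons. Each log2 difference is given ± its standard error. In such bulk samples fewer dividing cells and less RNA per dividing cell cannot be told apart.

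Stimulation was followed by a rise of nearly the whole set over both intervals sampled. The intervals from 0 to 18 h and from 18 to 48 h are called steps below. The times sampled cannot show whether the rise was stepped or steady. The mean log2 level over the 54 genes was 5.97, 6.19 and 6.06 on the 3 DMSO_0h arrays, 7.63, 7.86 and 7.77 on the DMSO_18h arrays, and 9.19, 9.23 and 9.19 on the DMSO_48h arrays. At 18 h, 51 genes were higher than at 0 h and 3 were lower (33.7% and 27.2% of all genes), with a median difference of 1.59. At 48 h, 53 were higher than at 18 h and none was lower (16.4% and 12.6% of all genes), with a median difference of 1.46. Set against 0 h, 53 were higher and 1 was lower at 48 h (38.5% and 36.2% of all genes), with a median of 3.08, or 8.45-fold. Since 26 of the 54 genes passed the filter through the cultured cells, a rise from 0 h is partly built in for them. The counts against 0 h were not split by this. Arrays did not overlap for 50 of the 51 genes higher at 18 h (32.7% of all genes), Cenpf being the exception, and for all 53 of those higher at 48 h than at 18 h (23.3%).

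**Figure D1:**
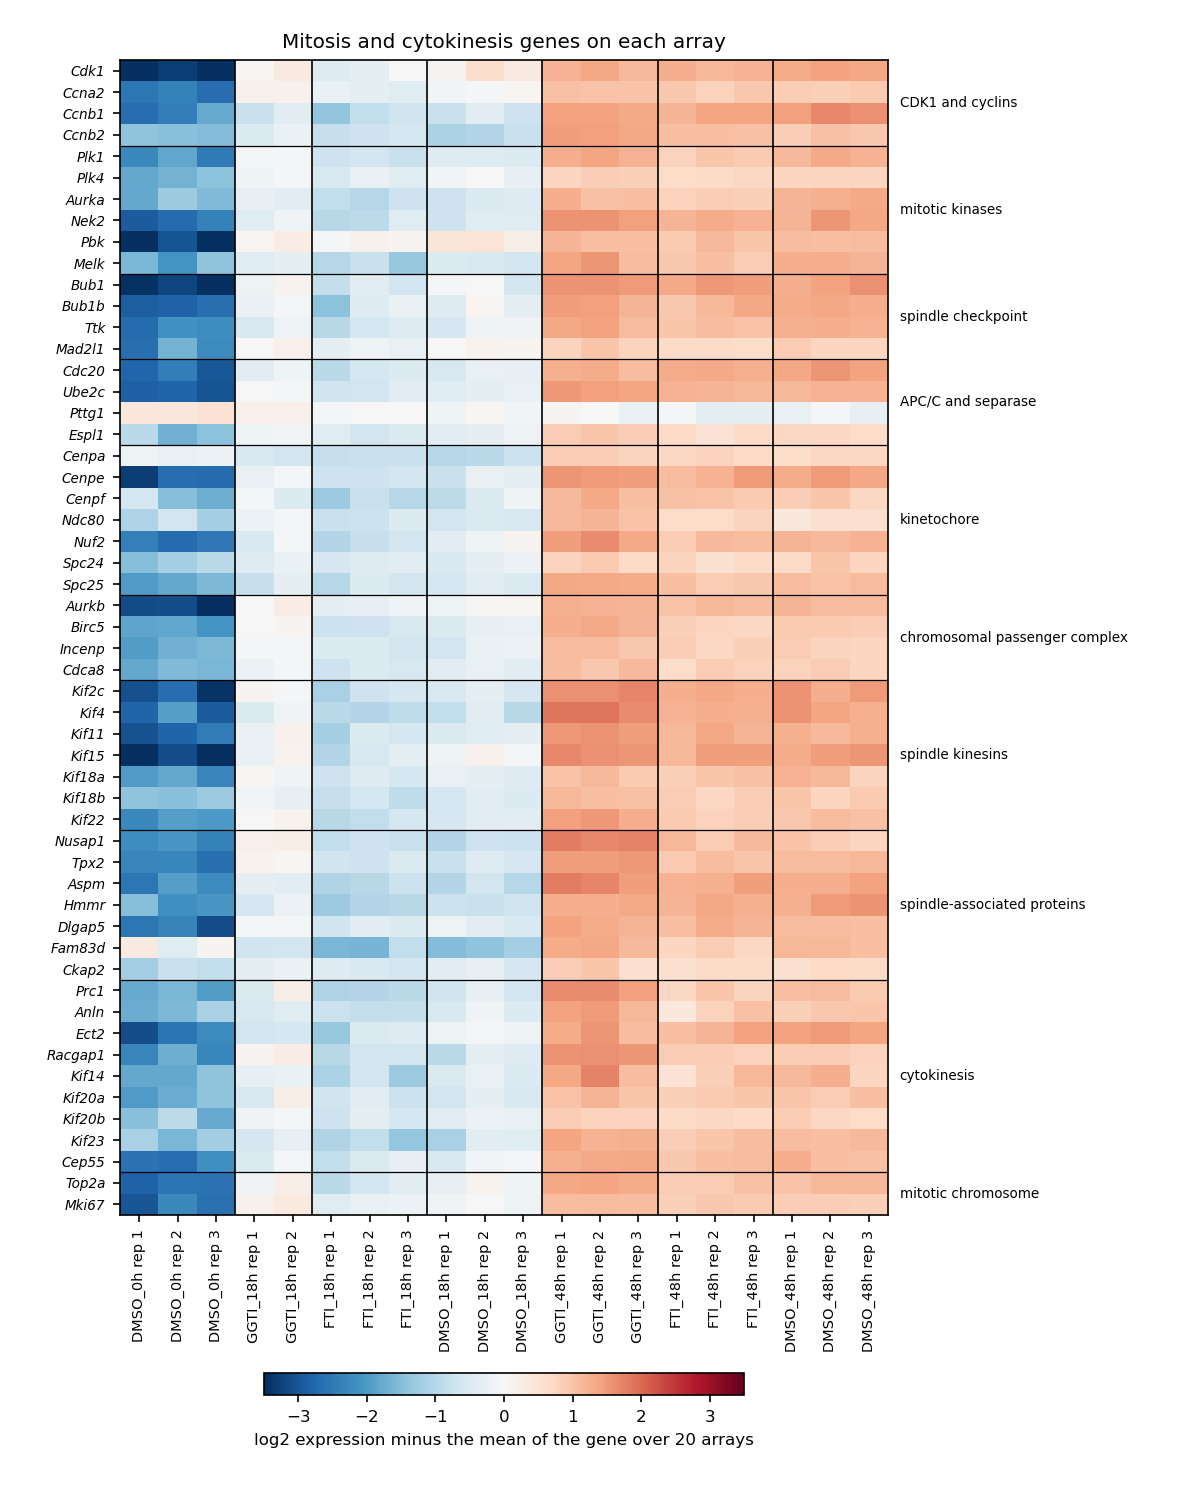
Log2 level of each of the 54 genes (rows, grouped by role) on each of the 20 arrays (columns, by group), coloured as the difference from the gene's mean over all arrays. Most rows are lowest at 0 h, intermediate at 18 h and highest at 48 h, while Pttg1, Cenpa and Fam83d are lower at 18 h than at 0 h.

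In 22 of the 54 genes the DMSO_0h mean was at or below that group's negative-control median, so the size of their rise is limited by background and they are not ranked by it. They include Cdk1, Bub1, Bub1b, Ttk, Cenpe, Cenpf, Kif2c, Kif11, Kif15, Ect2 and Cep55. Both comparisons at 18 h share the DMSO_18h arrays, and the values of each are given side by side.

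All 4 genes of Cdk1 and its cyclins rose at both steps. Cdk1, the kinase of mitotic entry, had log2 levels of 4.64, 5.83 and 4.87 at 0 h, 9.21, 9.74 and 9.44 at 18 h and 10.42, 10.52 and 10.47 at 48 h. Its arrays did not overlap between times, and its difference at 18 h was 4.35 ± 0.21 (adjusted p = 4.62e-12), from a 0 h level at background. From 18 h it gained 1.01 ± 0.21 (adjusted p = 0.00169). Ccna2, cyclin A2, which acts from S phase on, was at 6.22, 6.38 and 6.07 at 0 h, 8.64, 8.69 and 8.81 at 18 h and 9.61, 9.58 and 9.65 at 48 h. It too had most of its rise by 18 h (2.49 ± 0.08, then 0.90 ± 0.08). In both cyclin B genes the second difference was the larger. Whether the 2 differences of a gene differ from each other was not tested, here or for the genes below. Ccnb1 was at 5.97, 6.2 and 6.87 at 0 h, 7.84, 8.24 and 7.91 at 18 h and 10.07, 10.31 and 10.23 at 48 h, a difference of 1.65 ± 0.19 and then of 2.21 ± 0.19 (adjusted p = 1.45e-07). Ccnb2 stayed close to its start, with 7.97, 7.9 and 7.86 at 0 h and 8.25, 8.35 and 8.58 at 18 h (0.49 ± 0.088, adjusted p = 9.08e-05), and then reached 10.24, 10.39 and 10.31 at 48 h (1.92 ± 0.088).

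**Figure D2:**
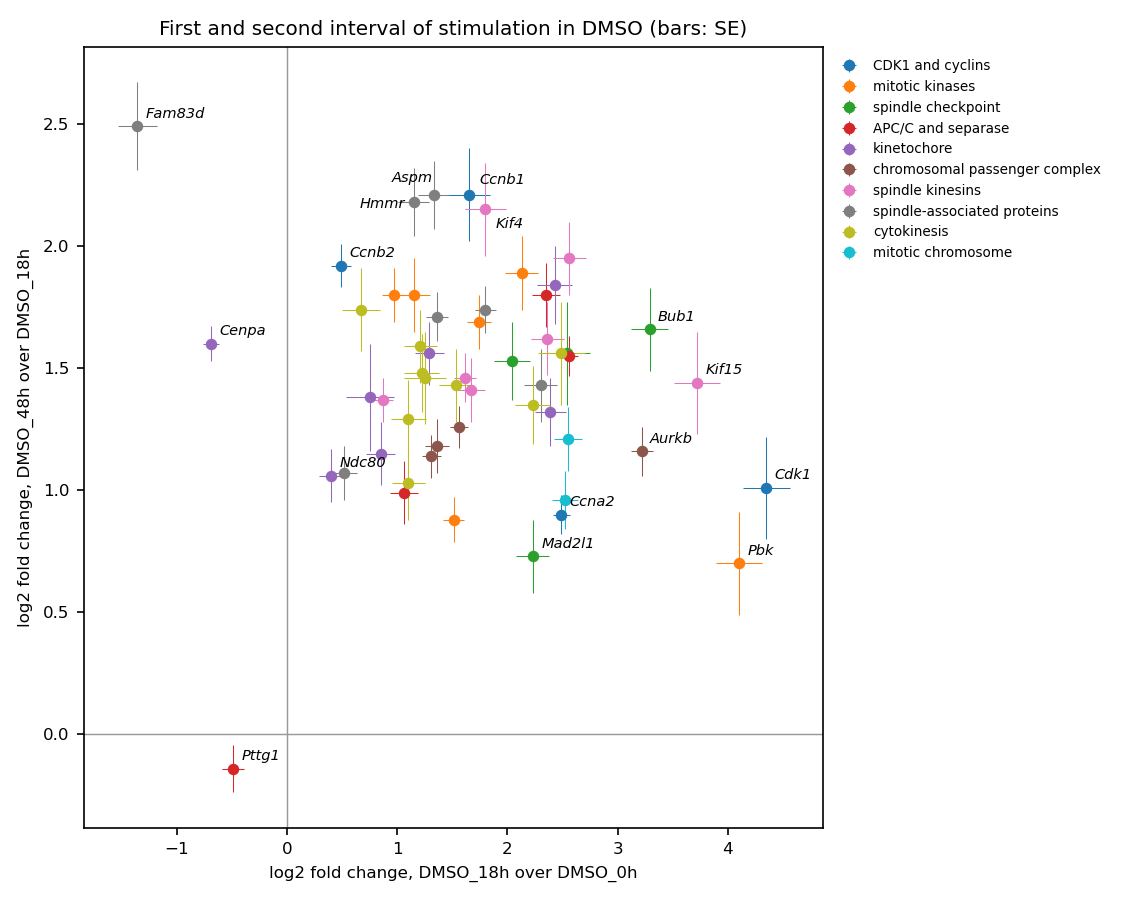
Log2 difference of DMSO_18h from DMSO_0h (x axis) and of DMSO_48h from DMSO_18h (y axis) for each of the 54 genes, coloured by role; the axes share the DMSO_18h arrays. Cdk1, Pbk and Kif15 lie far to the right, Fam83d, Cenpa and Pttg1 left of 0, and Fam83d, Aspm, Ccnb1 and Hmmr at the top. The 0 h levels of Cdk1 and Kif15 were at background, which limits what their place on the x axis shows.

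The 6 mitotic kinases rose at both steps, with medians of 1.62, in which Plk4, Nek2 and Melk started at background, and 1.75. Plk1, which acts from mitotic entry to cytokinesis, was at 7.34, 7.77 and 7.12 at 0 h, 9.16, 9.16 and 9.12 at 18 h and 10.74, 10.94 and 10.83 at 48 h, and rose by nearly equal amounts (1.74 ± 0.11 and 1.69 ± 0.11). Aurka, the kinase of spindle poles, was at 5.94, 6.47 and 6.17 at 0 h, 7.01, 7.22 and 7.27 at 18 h and 8.91, 8.96 and 9.04 at 48 h. It had the larger difference at the second step (0.97 ± 0.11, then 1.80 ± 0.11). Pbk, a kinase active in mitosis, was the opposite, at 5.46, 6.89 and 6.17 at 0 h, 10.32, 10.38 and 10.11 at 18 h and 10.98, 10.95 and 10.99 at 48 h. Its rise after 18 h, 0.70 ± 0.21 (adjusted p = 0.0192), was not called without DMSO_18h replicate 3 or without DMSO_48h replicate 2.

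The 4 checkpoint genes all rose at both steps, with medians of 2.39, in which Bub1, Bub1b and Ttk started at background, and 1.54. Bub1, a kinase that recruits the checkpoint to kinetochores, was at 4.28, 4.51 and 3.84 at 0 h, 7.66, 7.74 and 7.08 at 18 h and 9.01, 9.14 and 9.33 at 48 h (3.29 ± 0.17 and 1.66 ± 0.17). Mad2l1, which encodes the Mad2 inhibitor of Cdc20, was at 7.59, 8.56 and 8.0 at 0 h, 10.21, 10.34 and 10.31 at 18 h and 11.1, 10.97 and 10.97 at 48 h. Most of its change had occurred by 18 h (2.23 ± 0.15, then 0.73 ± 0.15).

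Among the APC/C genes, 3 rose at both steps and 1 did not. Cdc20, the activator that the checkpoint restrains, was at 6.32, 6.7 and 6.15 at 0 h, 8.55, 8.84 and 8.82 at 18 h and 10.45, 10.64 and 10.52 at 48 h. Ube2c, the ubiquitin-conjugating enzyme of the APC/C, was at 6.24, 6.28 and 6.06 at 0 h, 8.67, 8.76 and 8.83 at 18 h and 10.26, 10.32 and 10.32 at 48 h. Espl1, separase, was at 7.15, 6.42 and 6.67 at 0 h, 7.73, 7.77 and 7.92 at 18 h and 8.81, 8.83 and 8.74 at 48 h. In all 3 the arrays of the 3 times were apart, with differences at 18 h of 2.35 ± 0.13 for Cdc20, 2.56 ± 0.081 for Ube2c and 1.06 ± 0.13 for Espl1. Pttg1, securin, the inhibitor of separase, went the other way, at 10.0, 9.99 and 10.11 at 0 h, 9.46, 9.67 and 9.5 at 18 h and 9.33, 9.57 and 9.31 at 48 h. It was lower than at 0 h both at 18 h, with a difference of -0.49 ± 0.097 (adjusted p = 0.000229), and at 48 h, with -0.63 ± 0.097 (adjusted p = 1.2e-05), while its 18 and 48 h arrays overlapped (-0.14 ± 0.097, adjusted p = 0.29). It was the only gene of the set with its highest group mean at 0 h.

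Of 7 kinetochore genes, 6 rose and 1 fell at 18 h, and all 7 rose after that. Cenpa, the histone H3 variant that marks centromeres, was at 10.11, 10.04 and 10.1 at 0 h, 9.3, 9.34 and 9.54 at 18 h and 10.94, 11.03 and 11.01 at 48 h. The 18 h arrays were below all others of the DMSO series, with a difference of -0.69 ± 0.072 (adjusted p = 1.19e-07) and then one of 1.60 ± 0.072 (adjusted p = 8.46e-11). Cenpe, a kinetochore motor, was at 4.72, 5.35 and 5.34 at 0 h, 7.23, 7.76 and 7.72 at 18 h and 9.33, 9.51 and 9.38 at 48 h. Ndc80, which grips microtubules, moved little at first, at 7.48, 7.91 and 7.41 at 0 h and 7.93, 8.06 and 7.99 at 18 h (0.40 ± 0.11, adjusted p = 0.00554), and was at 8.92, 9.11 and 9.13 at 48 h. Its partner Nuf2 rose by 2.39 ± 0.14 at 18 h, from a 0 h level at background. Cenpf, a large kinetochore protein of late cell cycle, was at 6.11, 5.22 and 5.0 at 0 h, 5.81, 6.2 and 6.56 at 18 h and 7.58, 7.7 and 7.43 at 48 h. The first 2 times overlapped, and the difference of 0.75 ± 0.22 (adjusted p = 0.00737) was not called without DMSO_0h replicate 3 or without DMSO_18h replicate 3.

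The passenger complex, which corrects chromosome attachment and then moves to the division plane, rose in all 4 genes at both steps. Aurkb, its kinase, was at 6.23, 6.25 and 5.87 at 0 h, 9.19, 9.41 and 9.42 at 18 h and 10.55, 10.47 and 10.47 at 48 h. Its difference at 18 h, 3.22 ± 0.1, exceeded those of its partners Birc5 (survivin, 1.56 ± 0.086), Incenp (1.36 ± 0.11) and Cdca8 (borealin, 1.31 ± 0.088), and the 48 h differences of the 4 genes lay between 1.14 and 1.26.

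All 7 spindle kinesins rose at both steps, with medians of 1.80, in which Kif2c, Kif4, Kif11, Kif15 and Kif18a started at background, and 1.46. Kif11, the motor that pushes spindle poles apart, was at 4.79, 5.02 and 5.37 at 0 h, 7.33, 7.41 and 7.51 at 18 h and 9.06, 8.97 and 9.08 at 48 h. Kif15, a motor that can take over from Kif11, was at 4.12, 5.03 and 4.05 at 0 h, 7.95, 8.29 and 8.1 at 18 h and 9.43, 9.58 and 9.67 at 48 h (3.72 ± 0.21, then 1.44 ± 0.21). Both had all arrays of the 3 times apart.

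Among the 7 other spindle proteins, 6 rose at 18 h and Fam83d, which helps align chromosomes, fell. Fam83d was at 7.9, 7.18 and 7.69 at 0 h, 6.08, 6.19 and 6.41 at 18 h and 8.77, 8.75 and 8.64 at 48 h. No array of 1 time overlapped another, and its differences of -1.36 ± 0.18 (adjusted p = 1.77e-06) and then 2.49 ± 0.18 (adjusted p = 1.51e-08) were the lowest at 18 h and the highest from 18 to 48 h in the set. Of the other spindle proteins, those with the next largest late differences were Aspm, a protein of spindle poles, at 8.77, 8.76 and 8.91 at 48 h, against 6.47, 6.84 and 6.51 at 18 h, and Hmmr, a microtubule-binding spindle protein, at 9.05, 9.28 and 9.37 at 48 h, against 7.04, 7.02 and 7.11 at 18 h. Aspm differed by 2.21 ± 0.14 and Hmmr by 2.18 ± 0.14. Tpx2, which activates Aurka on spindle microtubules, rose by 1.80 ± 0.097 and 1.74 ± 0.097, and Nusap1, which bundles spindle microtubules, by 1.36 ± 0.1 and 1.71 ± 0.1.

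The 9 cytokinesis genes rose at both steps, with medians of 1.22, in which Anln, Ect2, Kif14 and Cep55 started at background, and 1.46. Ect2, the exchange factor that starts furrowing at the division plane, was at 3.37, 3.93 and 4.26 at 0 h, 6.29, 6.45 and 6.29 at 18 h and 7.89, 7.96 and 7.86 at 48 h. Cep55, needed for the final cut, was at 4.82, 4.74 and 5.24 at 0 h, 6.87, 7.3 and 7.34 at 18 h and 8.67, 8.46 and 8.43 at 48 h. Anln, the contractile ring scaffold anillin, was at 4.7, 4.86 and 5.31 at 0 h, 5.91, 6.32 and 5.95 at 18 h and 7.27, 7.39 and 7.4 at 48 h. At 18 h Ect2 differed by 2.49 ± 0.21, Cep55 by 2.23 ± 0.16 and Anln by 1.1 ± 0.16, all from a 0 h level at background. The partners of centralspindlin, the complex that recruits Ect2, moved unequally at 18 h. Kif23, its motor, was at 6.71, 6.26 and 6.63 at 0 h, 6.71, 7.48 and 7.41 at 18 h and 8.93, 8.9 and 8.98 at 48 h (0.67 ± 0.17, then 1.74 ± 0.17). Racgap1, its GTPase-activating subunit, was at 6.59, 7.19 and 6.61 at 0 h, 7.95, 8.59 and 8.43 at 18 h and 9.78, 9.79 and 9.7 at 48 h (1.53 ± 0.15, then 1.43 ± 0.15). That the 2 rises at 18 h differ from each other was not tested.

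Of the mitotic chromosome genes, Top2a, the topoisomerase that untangles sister chromatids, was at 6.58, 6.85 and 6.82 at 0 h, 9.11, 9.51 and 9.26 at 18 h and 10.39, 10.55 and 10.56 at 48 h. Mki67, the proliferation marker that coats mitotic chromosomes, was at 7.53, 8.28 and 7.91 at 0 h, 10.41, 10.5 and 10.35 at 18 h and 11.38, 11.4 and 11.37 at 48 h. Both had the larger part of their change by 18 h, 2.55 ± 0.13 for Top2a and 2.52 ± 0.12 for Mki67, against 1.21 ± 0.13 and 0.96 ± 0.12 from 18 to 48 h.

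**Figure D3:**
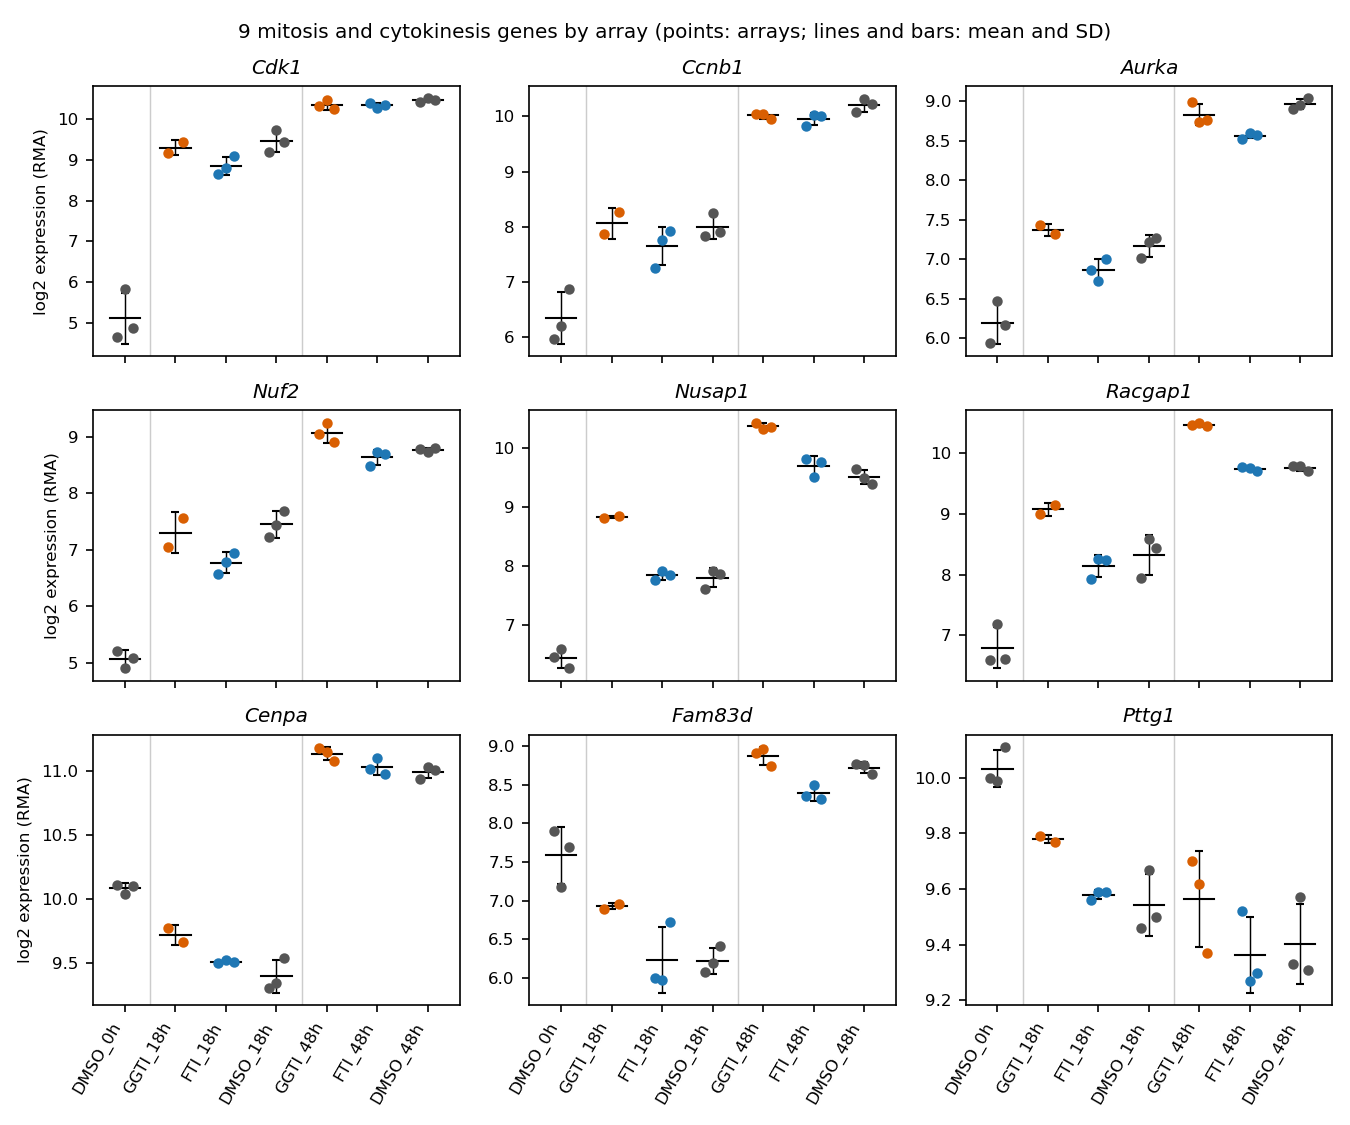
Log2 level (y axis) of 9 of the genes on each array, by group in time order (x axis), with the inhibitor groups left of DMSO within a time; points are arrays, lines the group mean and bars the SD. Cdk1 and Ccnb1 climb with time in all treatments, Nusap1 and Racgap1 are higher on every GGTI array than on the DMSO and FTI arrays of the same time, and Pttg1 is highest at 0 h.

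The rise from 18 to 48 h was also present under both inhibitors. In GGTI-treated cells 53 of 54 genes were higher at 48 h than at 18 h (12.6% of all genes), with a median of 1.45, and in FTI-treated cells 53 were (9.49% of all genes), with a median of 1.67. None was lower in either series (9.18% of all genes under GGTI and 7.13% under FTI). Kif4, a chromosome-bound kinesin, Aspm and Ccnb1 were among the 4 largest differences under each inhibitor, at 2.09, 2.03 and 1.95 under GGTI and 2.21, 2.24 and 2.30 under FTI. The gene not called was Pttg1, at -0.22 in both. In the GGTI series the calls of Cdk1, Pbk and Mad2l1 were lost without GGTI_18h replicate 1.

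With GGTI at 18 h, 9 genes were higher than in DMSO_18h and none was lower (3.86% and 2.08% of all genes), and the median over the 54 was 0.23. Both GGTI arrays were above all DMSO arrays in 28 of the 54 (16.1% of all genes). Nusap1 had log2 levels of 8.82 and 8.85 in GGTI_18h, against 7.62, 7.92 and 7.87 in DMSO_18h. Tpx2 was at 8.43 and 8.39, against 7.52, 7.86 and 7.72, and Ccnb2 at 8.89 and 9.13, against 8.25, 8.35 and 8.58. In each of the 3 genes both GGTI arrays were above every DMSO array, and the differences were 1.04 ± 0.12 for Nusap1 (adjusted p = 4e-05), 0.71 ± 0.11 for Tpx2 (0.00078) and 0.61 ± 0.098 for Ccnb2 (0.00106). Only Nusap1 reached 2-fold.

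The other 6 were smaller or less certain. Racgap1 was at 9.0 and 9.15 in GGTI_18h, against 7.95, 8.59 and 8.43 in DMSO_18h (0.75 ± 0.17, adjusted p = 0.0132). Fam83d was at 6.9 and 6.96, against 6.08, 6.19 and 6.41 (0.70 ± 0.2, adjusted p = 0.0404). Cenpa was at 9.77 and 9.66, against 9.3, 9.34 and 9.54 (0.32 ± 0.08, adjusted p = 0.0228). All GGTI arrays of these 3 genes were above the DMSO arrays, as they were for Birc5 (0.41 ± 0.097, adjusted p = 0.0165), for Kif22, a chromosome-arm kinesin (0.49 ± 0.12, adjusted p = 0.0172), and for Ube2c (0.31 ± 0.091, adjusted p = 0.0495). The gene furthest below DMSO was Ect2, at 5.81 and 5.85 in GGTI_18h, against 6.29, 6.45 and 6.29 in DMSO_18h, and it was not called (-0.51 ± 0.23, adjusted p = 0.241). Cdk1, at 9.18 and 9.44 in GGTI_18h, lay within the range of its DMSO arrays apart from 1 value just below it (-0.15 ± 0.23, adjusted p = 0.815).

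The GGTI_18h group has 2 arrays, and the count was 4 without either of them, 4 without DMSO_18h replicate 1 and 14 without DMSO_0h replicate 2. Nusap1, Tpx2 and Ccnb2 were called whichever single array was left out, Racgap1 was lost without either GGTI_18h array, and the other 5 were each lost in 3 or more of 20 such fits. Fam83d and Ube2c were also lost with centred arrays or no filter, and Cenpa with no filter.

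With GGTI at 48 h, 11 genes were higher than in DMSO_48h and none was lower. In this comparison 18.4% of all genes were higher and 21.9% lower, so the share of the set that was higher is close to the background. The median over the 54 was 0.17, and all GGTI arrays were above all DMSO arrays in 28 (25.3% of all genes). Nusap1 was at 10.43, 10.32 and 10.36 in GGTI_48h, against 9.64, 9.49 and 9.4 in DMSO_48h (0.87 ± 0.1, adjusted p = 2.09e-06). Racgap1 was at 10.46, 10.5 and 10.44, against 9.78, 9.79 and 9.7 (0.71 ± 0.15, adjusted p = 0.000942), and Ndc80 was at 9.7, 9.74 and 9.56, against 8.92, 9.11 and 9.13 (0.62 ± 0.11, adjusted p = 0.000253). All 3 GGTI arrays were above all 3 DMSO arrays in each of these genes. Prc1, which crosslinks the central spindle, was at 9.75, 9.75 and 9.52, against 9.15, 9.2 and 9.02 (0.55 ± 0.15, adjusted p = 0.00589).

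The remaining genes called were Ccnb2 (0.46 ± 0.088), Anln (0.44 ± 0.16), Kif22 (0.39 ± 0.1), Birc5 (0.36 ± 0.086), Tpx2 (0.35 ± 0.097), Ube2c (0.24 ± 0.081) and Cdca8 (0.23 ± 0.088). Anln was at 7.85, 7.94 and 7.59 in GGTI_48h, against 7.27, 7.39 and 7.4 in DMSO_48h. The calls of Anln, Ube2c and Cdca8 were lost when 1 of several arrays was left out, and also with centred arrays or no filter, while the other 8 were kept whichever array was left out. Cdc20 had the lowest difference, at 10.36, 10.4 and 10.2 in GGTI_48h, against 10.45, 10.64 and 10.52 in DMSO_48h, and was not called (-0.22 ± 0.13, adjusted p = 0.212).

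The 2 GGTI comparisons share no array. The 2 comparisons have 7 called genes in common, Nusap1, Tpx2, Ccnb2, Racgap1, Birc5, Kif22 and Ube2c. That is 77.8% of the genes of the set called at 18 h and 63.6% of those called at 48 h. The same overlap was not counted over all genes, so whether these shares are particular to the set was not tested. In these 7 the difference from DMSO was between 0.31 and 1.04 at 18 h and between 0.24 and 0.87 at 48 h. A test of the change of the GGTI difference between 18 and 48 h called none of the 54 genes (9.51% of all genes in either direction), with 5 at an unadjusted p under 0.05. Fam83d had the lowest value of that change, at -0.55 ± 0.26 (adjusted p = 0.229), and Anln the highest, at 0.54 (adjusted p = 0.197). Of the 7 shared genes, Racgap1, Ccnb2, Kif22 and Ube2c had both a CHR element and a CCAAT box in the promoter window. The windows of Nusap1 and Birc5 held neither, and Tpx2 had no window.

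**Figure D4:**
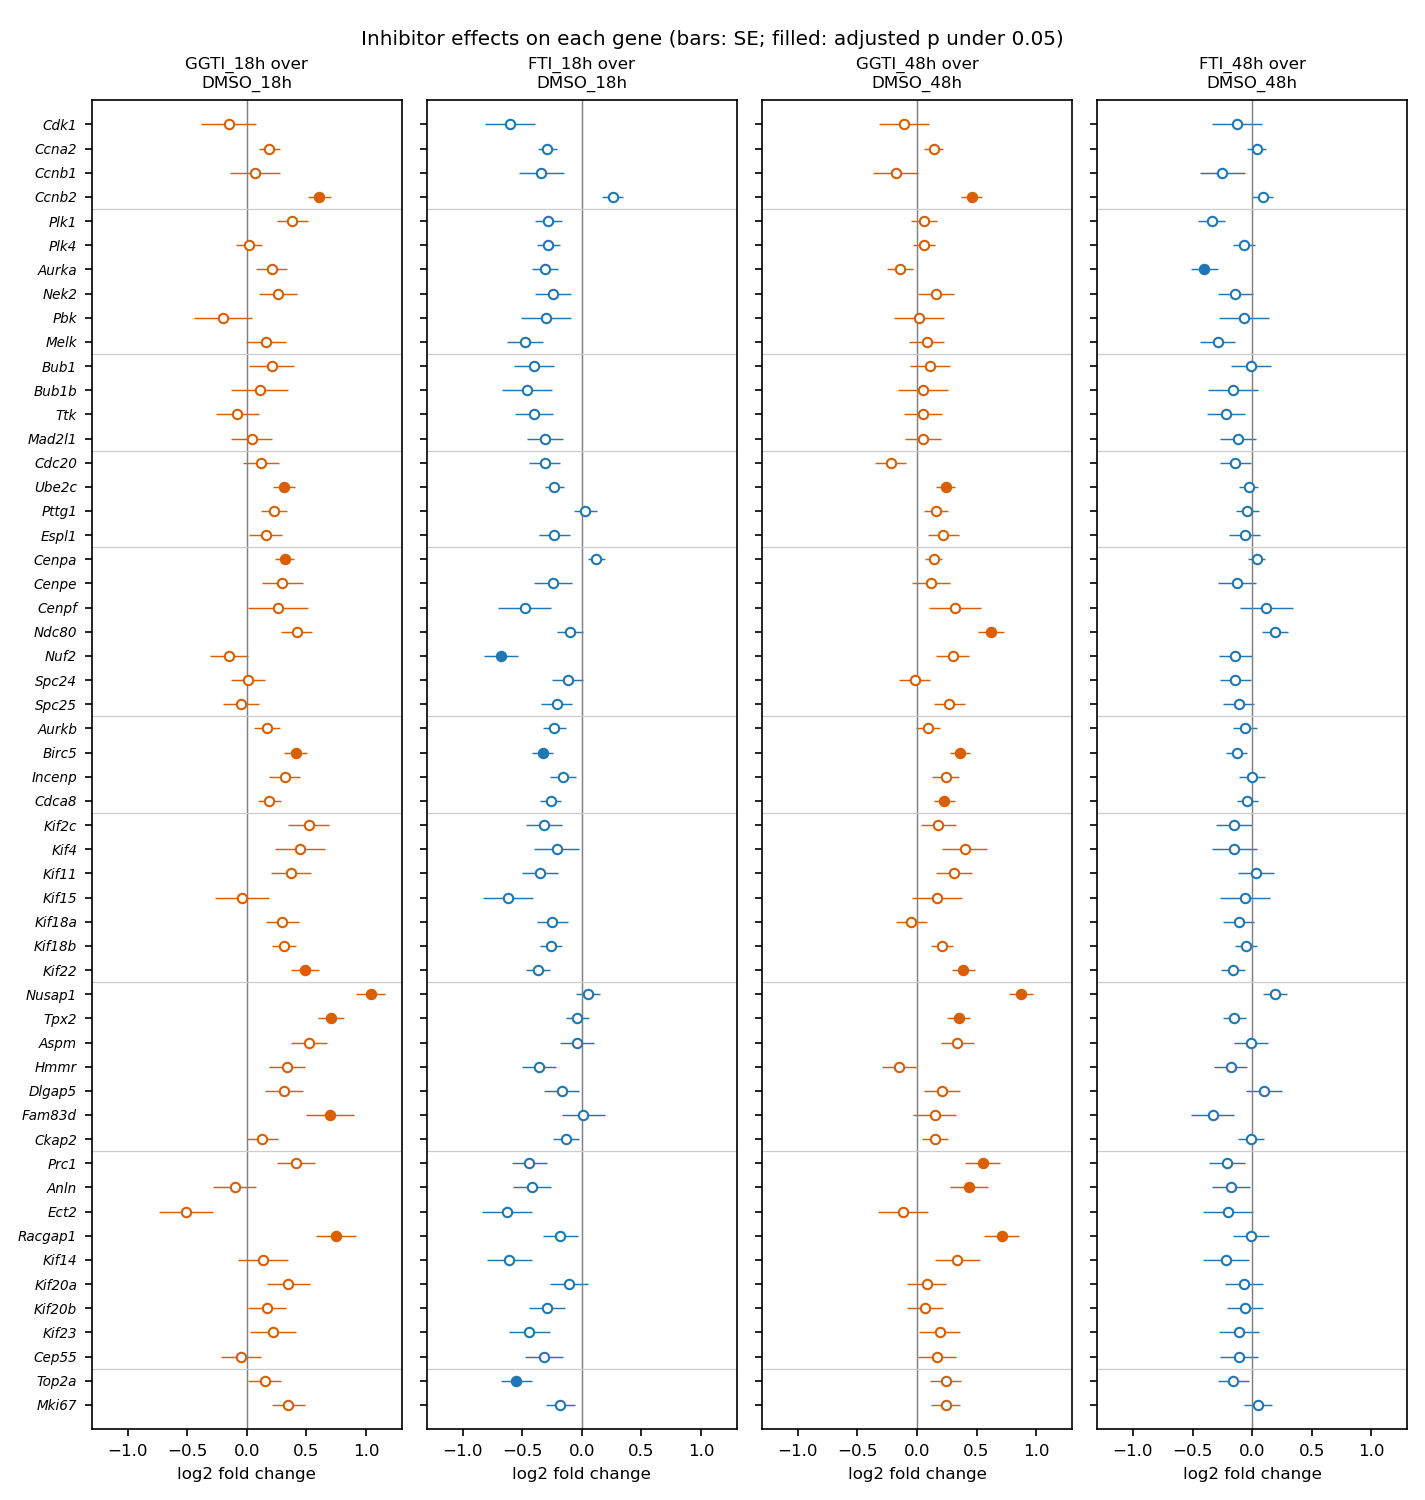
Log2 difference from DMSO of the same time (x axis) for each of the 54 genes (rows, by role), in panels for GGTI_18h, FTI_18h, GGTI_48h and FTI_48h; bars are standard errors and filled points have an adjusted p under 0.05. Filled points lie right of 0 in the GGTI panels (9 and 11 genes) and left of 0 in the FTI panels (3 and 1).

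With FTI at 18 h the values leaned the other way, and few passed the test. No gene was higher and 3 were lower than in DMSO_18h (2.62% and 0.682% of all genes), while 49 of 54 differences were negative (49.4% of all genes) and the median was -0.28. Nuf2, the Ndc80 partner, was at 6.58, 6.78 and 6.95 in FTI_18h, against 7.22, 7.44 and 7.69 in DMSO_18h (-0.68 ± 0.14, adjusted p = 0.0122). Top2a was at 8.47, 8.75 and 9.01, against 9.11, 9.51 and 9.26 (-0.55 ± 0.13, adjusted p = 0.0237), and Birc5 at 9.15, 9.19 and 9.34, against 9.4, 9.62 and 9.65 (-0.33 ± 0.086, adjusted p = 0.0443). In these 3 genes all FTI arrays were below all DMSO arrays, which held for 21 of the 54 genes (7.75% of all genes).

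Several genes had differences as large without passing. Ect2 was at 5.15, 5.97 and 6.02 in FTI_18h, against 6.29, 6.45 and 6.29 in DMSO_18h (-0.63 ± 0.21, adjusted p = 0.111). Kif15 was at 7.11, 7.58 and 7.81, against 7.95, 8.29 and 8.1 (-0.62 ± 0.21, adjusted p = 0.121), and Cdk1 at 8.67, 8.81 and 9.11, against 9.21, 9.74 and 9.44 (-0.60 ± 0.21, adjusted p = 0.136). In each the FTI arrays were the lower ones, with replicate 1 the lowest. Ccnb2 had the highest difference, at 8.57, 8.63 and 8.76 in FTI_18h, against 8.25, 8.35 and 8.58 in DMSO_18h, with the arrays overlapping by 1 value (0.26 ± 0.088, adjusted p = 0.129). Nusap1, Tpx2, Fam83d and Pttg1 differed from DMSO by 0.05 or less in size.

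The FTI count depended on single arrays. It was 9 without DMSO_0h replicate 2, 5 without DMSO_18h replicate 1, 1 without DMSO_18h replicate 2, 1 without DMSO_18h replicate 3, where the gene called was Ccnb2 as higher (0.35, adjusted p = 0.0497), and 0 without FTI_18h replicate 1. With only the 6 arrays compared it was 0, with the DMSO_0h arrays left out of the fit it was 10, and Birc5 was lost with centred arrays, no filter or array weights.

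With FTI at 48 h only Aurka was called, as lower, among the 54 (3.08% of all genes were lower and 4.58% higher). It was at 8.53, 8.6 and 8.57 in FTI_48h, against 8.91, 8.96 and 9.04 in DMSO_48h, with no overlap (-0.40 ± 0.11, adjusted p = 0.0364). The call was lost without any 1 of these 6 arrays, and 2 genes were called without DMSO_0h replicate 2 or 3. The median of the set was -0.11, and the highest difference was that of Ndc80 at 0.19. The change of the FTI difference between the 2 times called none of the 54 genes (0.433% of all genes in either direction), with 3 at an unadjusted p under 0.05, and the values for Nuf2 (0.54 ± 0.2, adjusted p = 0.406) and Ccna2 (0.33 ± 0.11, adjusted p = 0.339) were positive.

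Set directly against each other, the inhibitors differed in more of these genes than either did from DMSO. At 18 h, 19 genes were higher in GGTI than in FTI and none was lower (1.36% and 0.923% of all genes), and all 54 differences were positive (46.6% of all genes), with a median of 0.53. Nusap1 was at 8.82 and 8.85 in GGTI_18h, against 7.76, 7.92 and 7.86 in FTI_18h (0.99 ± 0.12, adjusted p = 0.000162). Kif22 was at 8.23 and 8.37, against 7.29, 7.39 and 7.64 (0.86 ± 0.12, adjusted p = 0.000522), and Racgap1 at 9.0 and 9.15, against 7.93, 8.26 and 8.24 (0.93 ± 0.17, adjusted p = 0.00609). The GGTI arrays were above the FTI arrays in these 3 genes and in 45 of the 54 in all (13.9% of all genes).

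The genes called at 18 h came from several roles. They included Plk1 (0.66 ± 0.13) and Aurka (0.52 ± 0.13) of the kinases, Ccna2 (0.48 ± 0.089), Kif2c, a microtubule-depolymerising kinesin (0.84 ± 0.17), Kif11 (0.72 ± 0.17), Prc1 (0.85 ± 0.16), Ndc80 (0.53 ± 0.13), Birc5 (0.74 ± 0.097) and Top2a (0.70 ± 0.14). The smallest differences were those of Pbk (0.10 ± 0.24), Ect2 and Spc24, a subunit of the Ndc80 complex (both 0.12). Without GGTI_18h replicate 2 the count was 6, without GGTI_18h replicate 1 it was 10 and without FTI_18h replicate 1 it was 11. Nusap1, Tpx2, Birc5, Kif22 and Ube2c were called whichever array was left out.

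At 48 h, 18 genes were higher in GGTI than in FTI and none was lower (13.6% and 13.9% of all genes), with a median of 0.27. Prc1 had the largest difference, with 9.75, 9.75 and 9.52 in GGTI_48h, against 8.81, 9.06 and 8.87 in FTI_48h (0.76 ± 0.15, adjusted p = 0.000679). Racgap1 followed, with 10.46, 10.5 and 10.44, against 9.77, 9.76 and 9.71 (0.72 ± 0.15, adjusted p = 0.0013), and then Nusap1, with 10.43, 10.32 and 10.36, against 9.81, 9.51 and 9.77 (0.67 ± 0.1, adjusted p = 6.63e-05). In all 3 the GGTI arrays were the higher ones without overlap. At the other end Cdc20 differed by -0.08 ± 0.13 and Cdk1 by 0.02 ± 0.21. The count was 11 without FTI_48h replicate 1, 10 without GGTI_48h replicate 1 and 11 without GGTI_48h replicate 2, and 8 genes were called whichever array was left out: Nusap1, Birc5, Kif22, Prc1, Tpx2, Racgap1, Ccnb2 and Ndc80.

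Over the 54 genes the mean log2 level was 7.91 and 8.07 in GGTI_18h, 7.33, 7.53 and 7.56 in FTI_18h and 7.63, 7.86 and 7.77 in DMSO_18h. At 48 h it was 9.42, 9.45 and 9.31 in GGTI_48h, 9.06, 9.13 and 9.14 in FTI_48h and 9.19, 9.23 and 9.19 in DMSO_48h. At both times the GGTI arrays were highest and the FTI arrays lowest. The highest group mean was that of GGTI_48h in 45 genes, of DMSO_48h in 8 and of DMSO_0h in 1. These are ranks of means and were not counted over all genes. Only 11 of the 54 genes were called higher in GGTI_48h than in DMSO_48h. Some leads were small, as for Pbk (11.0 in GGTI_48h, against 10.97 in DMSO_48h). The medians varied across roles. Under GGTI at 18 h the median was 0.52 for the spindle proteins and 0.37 for the spindle kinesins, against 0.07 for the checkpoint genes and 0.13 for Cdk1 and its cyclins. At 48 h these 4 medians were 0.21, 0.21, 0.05 and 0.01, and the highest was that of the kinetochore genes (0.27). Under FTI it was -0.42 for the cytokinesis genes and -0.04 for the spindle proteins at 18 h, and -0.11 and -0.01 at 48 h. Differences between roles were not tested.

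Other genes of the same machinery were read from lists chosen for their function. Of all genes tested, 33.7% were higher and 27.2% lower at 18 h than at 0 h, and 16.4% and 12.6% at 48 h than at 18 h. Under GGTI at 18 h 3.86% were higher and 2.08% lower, and under FTI at 18 h 2.62% and 0.682%. Of 34 other kinetochore and centromere genes, 28 rose and 3 fell by 18 h, and 29 rose and 1 fell after that. Knl1, the kinetochore scaffold for Bub1, rose by 2.31 ± 0.083 and then 1.66 ± 0.083, and Sgo1, the protector of centromeric cohesion, by 3.21 ± 0.14 at 18 h. Under GGTI 1 of the 34 was higher at 18 h, Cenpt (0.37 ± 0.083, adjusted p = 0.0128), which links centromeres to the Ndc80 complex. At 48 h 7 were higher and 2 lower, where 18.4% of all genes were higher and 21.9% lower, and Cenpt was among the higher (0.38). Under FTI at 18 h 3 were lower, Mis12 (-0.43), Sgo2a (-0.67) and Zw10 (-0.43), and none was higher.

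Of the 17 APC/C subunits and partners, 12 rose and 3 fell by 18 h (median 0.50) and 9 rose after it (median 0.28). Anapc13 (1.80 ± 0.1) and Anapc15 (1.65 ± 0.11) rose most clearly at 18 h. Fzr1, the Cdh1 activator of the APC/C in G1 phase, was lower at 18 h than at 0 h (-0.33, adjusted p = 0.000896) and higher at 48 h than at 18 h by 0.58 ± 0.075. Under GGTI at 48 h 4 were higher, Fzr1 among them (0.33 ± 0.075), and 4 lower, among them Anapc4 (-0.57 ± 0.11), Anapc1 (-0.39 ± 0.07) and Cdc26 (-0.38 ± 0.064), shares close to the 18.4% and 21.9% of all genes. Of the 13 condensin and cohesin genes, 7 rose and 1, Smc4 (-0.46), fell by 18 h, and 7, not all of them the same, rose after that. Ncapg, a condensin subunit, rose by 3.04 ± 0.088 and 1.09 ± 0.088 and was lower under FTI at 18 h (-0.48 ± 0.088, adjusted p = 0.00643).

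Among 18 regulators of mitotic entry and transcription, 13 were higher and 2 lower at 18 h, and 12 were higher at 48 h than at 18 h. Foxm1, the transcription factor of late cell cycle genes, had log2 levels of 6.43, 6.7 and 6.63 in DMSO_0h, 8.59, 8.78 and 8.87 in DMSO_18h and 10.18, 10.2 and 10.13 in DMSO_48h (2.16 ± 0.081, then 1.42 ± 0.081). Under the inhibitors Foxm1 was at 9.16 and 9.28 in GGTI_18h and 8.35, 8.4 and 8.42 in FTI_18h, the first above and the second below the DMSO_18h arrays (0.47 ± 0.091, adjusted p = 0.00406, and -0.36 ± 0.081, adjusted p = 0.0217). At 48 h Foxm1 was at 10.73, 10.66 and 10.62 in GGTI_48h, higher than in DMSO_48h by 0.50 ± 0.081 (adjusted p = 6.6e-05), and at 10.09, 10.03 and 10.08 in FTI_48h, which was not called (-0.11, adjusted p = 0.483). Mybl2, which encodes B-Myb, rose by 3.07 ± 0.14 and 0.63 ± 0.14 and was not called under either inhibitor at either time.

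The Cdk1-activating phosphatases differed among themselves. Cdc25c rose by 0.80 ± 0.13 and 1.92 ± 0.13 and was lower under FTI at 18 h (-0.50 ± 0.13, adjusted p = 0.0366). Cdc25b did not pass at 18 h (-0.01) and rose by 1.06 at 48 h, and was higher under GGTI by 1.34 ± 0.1 at 18 h and 1.62 ± 0.09 at 48 h (adjusted p = 4.25e-07 and 1.82e-10). Cdc25a was lower under GGTI at both times (-0.52 ± 0.13 and -0.60). Under FTI Cdc25b was higher at 18 h by 0.44 (adjusted p = 0.0113).

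Of 16 other spindle and centrosome genes, 9 rose and 3 fell by 18 h, and 12 rose after that. Ckap2l, a spindle protein, was higher under GGTI at 18 h by 0.58 ± 0.13 and at 48 h by 0.45, and Numa1, which anchors spindle poles, at 48 h by 0.42 ± 0.086. Spdl1, which brings dynein to kinetochores, was not called at 18 h (0.10) and rose by 0.52 at 48 h (adjusted p = 0.00182). The 19 other cytokinesis genes did not move as 1 group by 18 h, with 8 higher and 8 lower (median 0.02, against 33.7% and 27.2% of all genes). From 18 to 48 h 7 were higher and none was lower (median 0.13, against 16.4% and 12.6% of all genes). Cit, citron kinase, rose by 1.45 ± 0.094 and 1.06 ± 0.094, and Diaph3, a formin, by 1.81 ± 0.081 and 0.75 ± 0.081. Under GGTI 4 of these 19 genes were higher and none was lower at 18 h (3.86% and 2.08% of all genes). In GGTI_48h 6 were higher and 4 lower than in DMSO_48h (18.4% and 21.9% of all genes).

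DNA replication genes act in the S phase that precedes mitosis. Of 30, 29 were higher at 18 h than at 0 h (median 2.04), and 12 were higher and 1 lower at 48 h than at 18 h (median 0.28). Mcm2, of the replicative helicase, rose by 2.20 ± 0.067 at 18 h, and Dbf4, a replication kinase regulator, was the clearest later riser (1.28 ± 0.14). Under GGTI none was called at 18 h (median -0.06) and 3 were lower at 48 h, Rfc5 (-0.52), Orc6 (-0.24) and Pola1 (-0.23). That share is below the 21.9% of all genes that were lower in GGTI_48h. Under FTI 6 of the 30 were lower at 18 h (0.682% of all genes, median over the 30 -0.30), among them Cdc45 (-0.57), Rrm2 (-0.49) and Pola1 (-0.43).

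Markers of other cell types moved with some of these comparisons, and their part in the results was not tested. The summed linear level of 5 CD8 T and NK markers was 502 to 530 in DMSO_0h, 802 to 952 in DMSO_18h and 1890 to 2222 in DMSO_48h, with 3 of 5 above the negative controls at each time. At 48 h it was 609 to 743 in GGTI_48h and 999 to 1297 in FTI_48h, against 1890 to 2222 in DMSO_48h, and at 18 h 615 to 757 in GGTI_18h and 822 to 900 in FTI_18h, against 802 to 952 in DMSO_18h. These sums follow Nkg7, a protein of cytotoxic granules, which was higher at 18 h than at 0 h by 3.16 ± 0.16 and lower in GGTI_48h than in DMSO_48h (-3.47 ± 0.16). Cd8b1, a chain of the CD8 receptor, went the other way, lower at 18 h (-0.28) and higher in GGTI_48h (0.78 ± 0.11), and Cd8a, its partner chain, was called in neither (-0.55 and -0.17).

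The summed level of 6 red cell markers was 599 to 896 in DMSO_0h, 525 to 569 in DMSO_18h and 408 to 448 in DMSO_48h, with 4 of 6 above the negative controls at each time. At 48 h it was 622 to 682 in GGTI_48h and 450 to 508 in FTI_48h, against 408 to 448 in DMSO_48h, and in GGTI_48h 1 of the 4 red cell markers tested was called, Hba-a1, an alpha globin (2.06 ± 0.18 over DMSO_48h). The sum of 7 myeloid markers was 1346 to 1433 in DMSO_0h, 1761 to 1790 in DMSO_18h and 1567 to 1684 in DMSO_48h (3 of 7 above at each time). At 48 h it was 1978 to 2045 in GGTI_48h (4 of 7 above) and 1834 to 1901 in FTI_48h (3 of 7), against 1567 to 1684 in DMSO_48h. These sums follow Cst3, the gene of the list with the highest level, at 9.96, 10.03 and 9.95 in DMSO_0h and 10.58, 10.59 and 10.58 in DMSO_18h. Cd68 was lower at 18 h, at 6.39, 6.45 and 6.27, against 7.69, 7.58 and 7.41 in DMSO_0h. Of the 2 myeloid markers tested, 1 was higher and 1 lower at 18 h than at 0 h, and 1 was higher in GGTI_48h than in DMSO_48h. The sum of 5 B cell markers was 253 to 329 in DMSO_0h, 206 to 283 in DMSO_18h and 164 to 206 in DMSO_48h (1, 3 and 1 of 5 above), and 214 to 220 in GGTI_48h and 198 to 206 in FTI_48h (2 of 5 above in both).

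Of the 8 T and Treg markers, 4 were higher and 1 was lower at 18 h than at 0 h (33.7% and 27.2% of all genes). In GGTI_48h 5 were higher and 1 was lower than in DMSO_48h (18.4% and 21.9% of all genes). Foxp3, the factor that defines Treg cells, was 0.24 ± 0.071 higher at 18 h than at 0 h and lower at 48 h than at 18 h (-0.32). Under GGTI Foxp3 was not called at 18 h (0.04) and was 0.22 ± 0.071 higher at 48 h (adjusted p = 0.0191). Ctla4, an inhibitory receptor of Treg cells, was the marker lower in GGTI_48h, at 10.22, 10.23 and 10.26, against 10.65, 10.8 and 10.79 in DMSO_48h (-0.51 ± 0.1, adjusted p = 0.000531).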

How the data were processed

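The data are 20 Affymetrix arrays of total RNA, amplified with NuGEN WTA Pico v2 per the labels' protocols. The authors deposited log2 values that they had made by RMA normalization with Affymetrix Expression Console 1.1, per the submitters' processing notes. Since RMA gives all arrays 1 distribution, a change shared by most genes cannot be seen. Precision is limited by how many arrays a group has.

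Of 28846 probe sets, 22206 measure genes and 22202 have 1 symbol, of which 911 were updated by accession. A probe set was kept when above its array's median on at least 2 arrays, and the one with the highest mean stood for a symbol with several, which left 12462 genes. The 2 deposited tables differed by at most 1.8e-15, so 1 was used. Groups follow the labelled treatment. limma 3.58.1 in R 4.3.3 fitted 7 group means on all 20 arrays (13 residual and 4.98 prior degrees of freedom), with 2-sided tests and Benjamini-Hochberg adjustment over all genes in each of 13 comparisons at 0.05. The alternatives were other centring, no filter, only the arrays compared, trend and robust variances, array weights, and leaving out arrays. The fit was tested on simulated data. Per-array values are given for members fixed by role and for up to 3 at either end of a comparison, and list genes are those with the 4 smallest p plus a constant set, of which some are not reported here. The members, lists and tests were chosen with earlier results of these data known.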

Additional observations from a re-analysis of the deposited data

How the results depend on the processing

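The numbers of the 54 genes that changed with time moved by less than 1.5 times in every setting tried. Without 1 array at a time, the number called was 53 to 54 for DMSO_18h over DMSO_0h, 54 in every fit for DMSO_48h over DMSO_0h, 52 to 53 for DMSO_48h over DMSO_18h, 53 in every fit for FTI_48h over FTI_18h and 50 to 53 for GGTI_48h over GGTI_18h. The inhibitor counts moved more. For FTI_18h over DMSO_18h the 3 calls became 0 to 9 without 1 array, 1 with no filter on dim probe sets, 0 with only the arrays compared, 5 with trend and robust variances and 10 with the DMSO_0h arrays left out. For FTI_48h over DMSO_48h the 1 call became 0 to 2 without 1 array, 0 with no filter, 4 with only the arrays compared, and 2 with either centring, trend and robust variances, array weights or the DMSO_0h arrays left out. For GGTI_18h over DMSO_18h the 9 calls became 4 to 14 without 1 array, 3 with only the arrays compared and 14 with the DMSO_0h arrays left out. For GGTI_48h over DMSO_48h the 11 became 8 to 14 without 1 array and 22 with only the arrays compared or with array weights. For GGTI_18h over FTI_18h the 19 became 6 to 25 without 1 array, 6 with only the arrays compared, 29 with array weights and 31 with the DMSO_0h arrays left out, and for GGTI_48h over FTI_48h the 18 became 10 to 23 without 1 array and 29 with only the arrays compared. The change of the GGTI difference with time had 1 call with only the arrays compared (Fam83d, -0.55, adjusted p = 0.0299) and 1 with array weights (Hmmr, -0.56, adjusted p = 0.0447), and 0 without any 1 array, as did that of FTI. In these settings no called gene changed sign, and the cause of the moves was not tested. The fits with DMSO_0h left out and with centring on gene probe sets were chosen after seeing the data. Centring each array on the median of all probe sets gave a median over all genes of 0.11 at 18 h and 0.15 at 48 h relative to 0 h, where it had been 0 and -0.02, and changed the split of all genes called to 4834 higher and 2518 lower at 18 h, 5668 and 3034 at 48 h, and 2668 and 951 for 48 h over 18 h, against 4202 and 3392, 4798 and 4513, and 2047 and 1576 without centring. For FTI_48h that split became 411 and 512, against 571 and 384. No paired analysis was possible because the labels give no replicate numbers that tie arrays of different groups. Taking the lowest-mean probe set left the differences of these genes as they were, since each has 1 probe set, and the other deposited table holds the same values.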
